A study of Homo sapiens with 96 samples.

Results

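A549 cells treated with 1 µM GSK591 for 4 days were compared with A549 cells treated with 1 µM GSK591 for 2 days. The tables set each of these groups against DMSO and not against each other, so the counts of the GSK591 libraries were taken from both tables and joined on events with the same type, chromosome, strand, and coordinates. This gave 109921 events out of 239104 listed in the series, namely 4313 retained introns (RI), 77470 skipped exons (SE), 6918 alternative 3′ splice sites (A3SS), 4599 alternative 5′ splice sites (A5SS), and 16621 mutually exclusive exons (MXE). Of these, 94072 had at least 10 reads in each of the 6 GSK591 libraries and were tested. A549 is an established human lung adenocarcinoma line, and all groups used here were poly(A) RNA seq of this line, with 3 libraries each. Controls received 0.01% DMSO for 4 days. MS023 (1 µM) and GSK591 with MS023 (1 µM each) were also given for 2 and 4 days. No 2-day DMSO libraries of this experiment were analysed here, so days of inhibitor and days in culture cannot be told apart in the difference between 4 and 2 days. One inhibitor, 1 cell line, and 1 dose were used.

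PRMT5 is the main enzyme that places symmetric dimethylarginine on proteins, and GSK591 is a selective inhibitor of it. Its best known substrates are Sm proteins, which form the ring at the core of the spliceosomal snRNPs, together with many RNA-binding proteins. MS023 inhibits the Type I methyltransferases, which place asymmetric dimethylarginine. Introns that stay in polyadenylated transcripts are often held in the nucleus, where they can be spliced later or lead to decay of the RNA, and loss of PRMT5 activity is known for raising their number. Time under inhibitor, together with time in culture, is the variable compared here, and methylation was not measured in these libraries.

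Percent spliced in (Ψ) is the share of transcripts, corrected for effective length, that hold the intron or exon (for A3SS and A5SS the longer form, and for MXE the exon that is transcribed first). ΔΨ is the mean at 4 days minus the mean at 2 days. Errors of a mean Ψ are SDs over 3 libraries, and errors of ΔΨ are standard errors. An event was called where the adjusted p of the quasi-binomial test was under 0.05. The 3 libraries of a group are told apart as a, b, and c, in the order of the counts in the tables, which give no replicate number, and whether they came from separate cultures is not stated.

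Reads on matched RI events ranged from 3371835 to 5192459 among the 6 libraries, and reads on matched SE events from 43721677 to 57983816. One library stood apart. The 2-day library a had the most RI reads and the lowest median RI Ψ of the 2-day group, and it differed from the other 2-day libraries by 4.22 and 4.77 times the sampling variance, against 2.98 between the other pair and 2.50 to 2.82 among the 4-day libraries. Results are therefore also given without it. Of 7 epithelial markers, 6 had a tested event (KRT19 had none), while 7 of 10 leukocyte, endothelial, and neural markers had none. The other 3, CD68, RBFOX3, and SYP, had tested events. The deepest event of RBFOX3 had 46 to 169 reads per library, more than the 13 to 30 of the epithelial marker EPCAM. Of the 4 RI and 56 SE tested in epithelial markers the quasi-binomial test called 0, with 0 and 5 at an unadjusted p under 0.05 (1 and 3 with limma).

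The sequences at both ends of 8 introns that carry the main results are shown, read from GRCh37 (hg19) on the strand of the gene. The first 4 are among the 8 largest increases under the limits on reads and overlap given below, and were called without each library in turn. The fifth is an HNRNPH1 intron that rose with them, and the last 3 decreased. Each 5′ splice site window holds 5 bases of the exon before 15 of the intron, and capitals mark the 6 bases that open the intron. Each 3′ splice site window holds 25 bases of the intron before 5 of the exon, and capitals mark the 3 bases that close the intron.
PLXNB2 intron 21 (chr22:50719929-50719994, minus strand), 5′ splice site: tcattGTGCGTgagcgggga
PLXNB2 intron 21, 3′ splice site: gcgctgaacccggccccccacaCAGgtgaa
STAT6 intron 7 (chr12:57499383-57499973, minus strand), 5′ splice site: gagagGTTGGGctagggctg
STAT6 intron 7, 3′ splice site: cccctgaccactgtcctggcccCAGgtgtg
INTS3 intron 27 (chr1:153744917-153745114, plus strand), 5′ splice site: gaactGTATGCcttccaccc
INTS3 intron 27, 3′ splice site: cctgctctcccttttcttcctcTAGttttt
POLD1 intron 22 (chr19:50919084-50919652, plus strand), 5′ splice site: cggagGTCAGGcccacctgg
POLD1 intron 22, 3′ splice site: gggtgtgactgccatgtggccgCAGgaccc
HNRNPH1 intron 3 (chr5:179048037-179048242, minus strand), 5′ splice site: tgaagGTTTGAtttacattg
HNRNPH1 intron 3, 3′ splice site: gactaattctaagcacctctttCAGtattc
RPS9 intron 4 (chr19:54710331-54710420, plus strand), 5′ splice site: atcagGTACCAcctcggatg
RPS9 intron 4, 3′ splice site: cctgctgtccctatctcctatgCAGccctc
NSD1 intron 2 (chr5:176562202-176562941, plus strand), 5′ splice site: tttcgGTAATGgtcaatcca
NSD1 intron 2, 3′ splice site: aaactcaataaatttatcttttCAGgatga
GAS5 intron 9 (chr1:173833645-173833812, minus strand), 5′ splice site: tgcagGTTAGTttaaacttt
GAS5 intron 9, 3′ splice site: ggtattatttttcatcttcaaaCAGgcaga

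RI increased between 2 and 4 days of GSK591. The median Ψ over 3839 tested RI was 0.241, 0.261, and 0.258 in the 2-day libraries and 0.282, 0.274, and 0.280 in the 4-day libraries. The groups did not overlap. Their means were 0.253 ± 0.0109 and 0.279 ± 0.00396 (SD, n = 3 each), a difference of 0.0255, with p = 0.1 in a two-sided exact permutation test, which is the smallest p that 3 against 3 libraries allow. Without the 2-day library a, the difference was 0.0193. The 4-day DMSO libraries stood at 0.171, 0.170, and 0.167, below both GSK591 groups. Of the tested RI, 234 were called (6.1%), of which 196 in 176 genes rose (5.11%) and 38 in 27 genes fell (0.99%). The Ψ of the days did not overlap in 751 RI (19.6%), and 631 RI had an unadjusted p under 0.05. Over all tested RI the median ΔΨ was 0.00424, with 2297 above 0, 1445 below 0, and 97 equal, so the increase was not spread evenly over introns. Among the 196 that rose, the median Ψ was 0.0758 in DMSO, 0.144 at 2 days, and 0.219 at 4 days. Among the 38 that fell, it was 0.230, 0.254, and 0.145.

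How many RI were called depended on how the spread was estimated. When limma was applied to log2 inclusion odds, 1 RI was called at an adjusted p under 0.05 (467 at an unadjusted p under 0.05). All 234 kept their direction, on the same counts and libraries. With the dispersion not moderated, 2 RI were called. With groups of 1 form only counted in full, as in the first fit, 0 RI were called, and the handling used was chosen after that was seen. With the dispersion moderated towards a trend with read depth, 251 were called, 217 of them among the 234. Leaving out the 2-day library a left 176 called RI (129 higher and 47 lower), and leaving out the 4-day library c left 148 (118 and 30). Of the 234, 90 were called without each library in turn. None changed sign, which was bound to hold for the 219 whose days did not overlap.

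**Figure D1:**
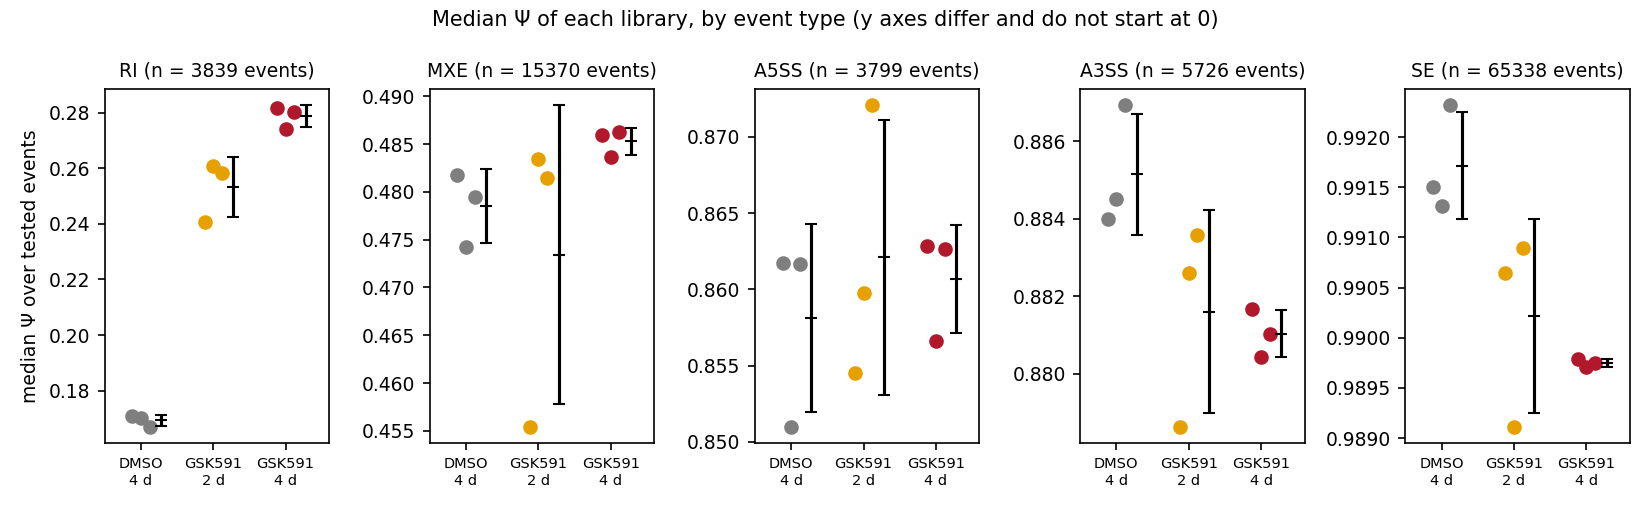
Median Ψ of each library (points) over the tested events of each type, with group means and SDs (black), for 4-day DMSO, 2-day GSK591, and 4-day GSK591. The y axes differ between panels and do not start at 0. In the RI panel the 3 groups do not overlap, with 4-day GSK591 highest (0.274 to 0.282).

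**Figure D2:**
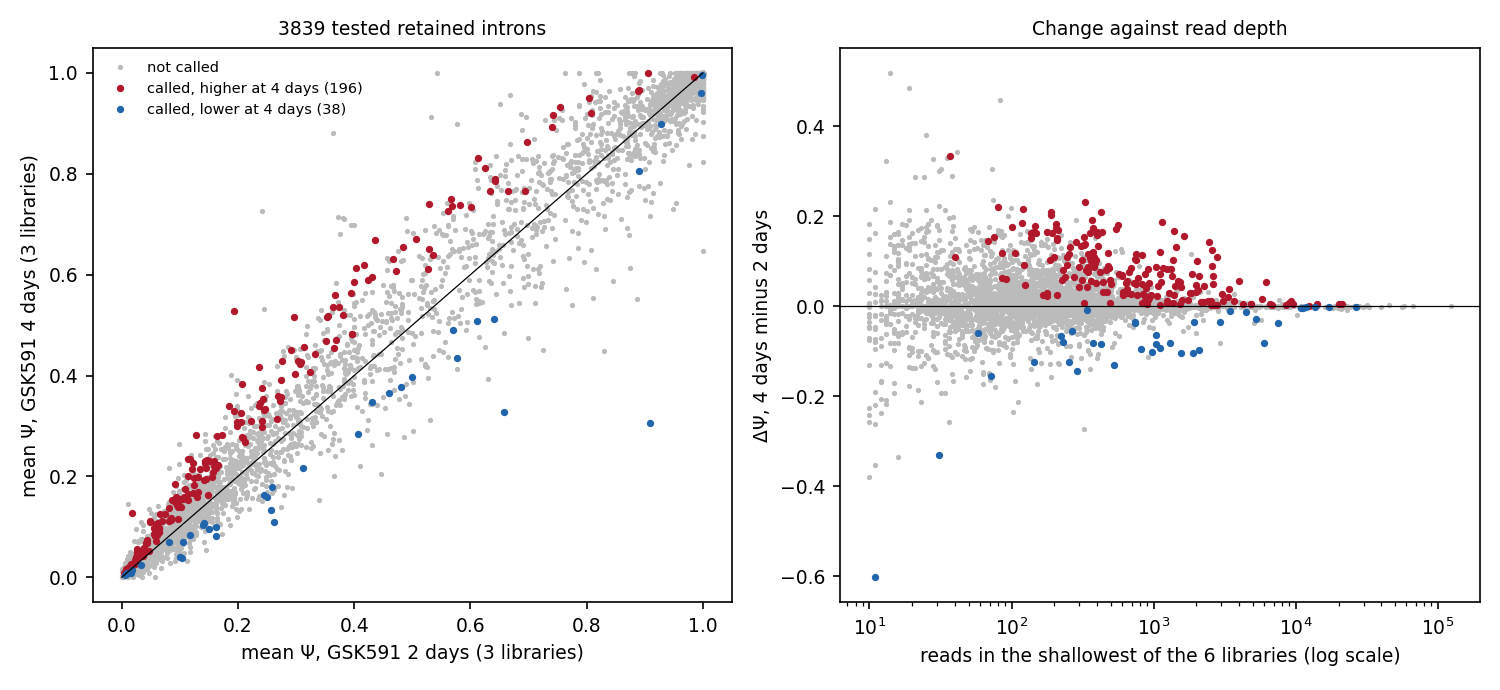
Left, mean Ψ of each of 3839 tested RI at 4 days (y) against 2 days (x) of GSK591, with called RI in color. Right, ΔΨ against the reads of the shallowest of the 6 libraries on a log scale. The 196 RI that rose and the 38 that fell lie toward the deeper end, with a median of 640.5 and 1041.5 reads in the shallowest library against 184 over all tested RI.

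Increases were ranked among called RI with at least 50 reads in every library and no overlap between the days, 1 per gene. Under these limits the largest were in genes of many functions. Without these limits the largest called increase was 0.334. PLXNB2 encodes a receptor of semaphorins, and its intron 21 had a Ψ of 0.507, 0.413, and 0.389 at 2 days and of 0.637, 0.691, and 0.678 at 4 days, against 0.133 to 0.162 in DMSO. All 4-day libraries were above all 2-day libraries (ΔΨ 0.233 ± 0.0396, adjusted p = 2.05e-06, with 328 to 529 reads per library). This intron has 66 nt. STAT6, a transcription factor of interleukin 4 signaling, retained intron 7 at 0.434, 0.596, and 0.558 at 2 days and at 0.729, 0.726, and 0.763 at 4 days (ΔΨ 0.210 ± 0.0503, adjusted p = 0.000236). INTS3 belongs to the Integrator complex, which cleaves snRNA precursors, and its intron 27 went from 0.335, 0.359, and 0.408 to 0.553, 0.545, and 0.580 (ΔΨ 0.192 ± 0.0238, adjusted p = 2.23e-05). In POLD1, the catalytic subunit of DNA polymerase delta, intron 22 went from 0.599, 0.614, and 0.661 to 0.796, 0.829, and 0.812, where DMSO stood at 0.179 to 0.192 (ΔΨ 0.188 ± 0.021, adjusted p = 2.05e-06). All 4 introns lie in the coding region and were called without each library in turn. No overlap between the days was a condition for choosing them.

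The other 4 of the 8 largest increases rested more on single libraries. CALCOCO1 intron 12 (ΔΨ 0.220 ± 0.0213, adjusted p = 0.00933) was not called without the 4-day library c (ΔΨ 0.200, adjusted p = 0.102). LEPRE1, a prolyl 3-hydroxylase of collagen, retained intron 7 at 0.410, 0.440, and 0.362 and then at 0.581, 0.533, and 0.725 (ΔΨ 0.209 ± 0.0622, adjusted p = 0.00258), and without the 4-day library c, the highest, ΔΨ was 0.153 (adjusted p = 0.234). U2AF1L4, which resembles the small subunit of the 3′ splice site factor U2AF, retained intron 2 in its 5′ UTR at 0.422, 0.450, and 0.377 and then at 0.543, 0.661, and 0.655, with DMSO at 0.346 to 0.458. The 2-day libraries thus overlapped DMSO while the 4-day libraries did not (ΔΨ 0.203 ± 0.0438, adjusted p = 0.00415, and 0.0656 without the 4-day library b). DNAJC4, a J-domain protein, retained its last intron, intron 5, with a ΔΨ of 0.217 ± 0.0687 (adjusted p = 0.0145), and was not called without the 2-day library b, the 2-day library c, or the 4-day library c (adjusted p up to 0.133).

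**Figure D3:**
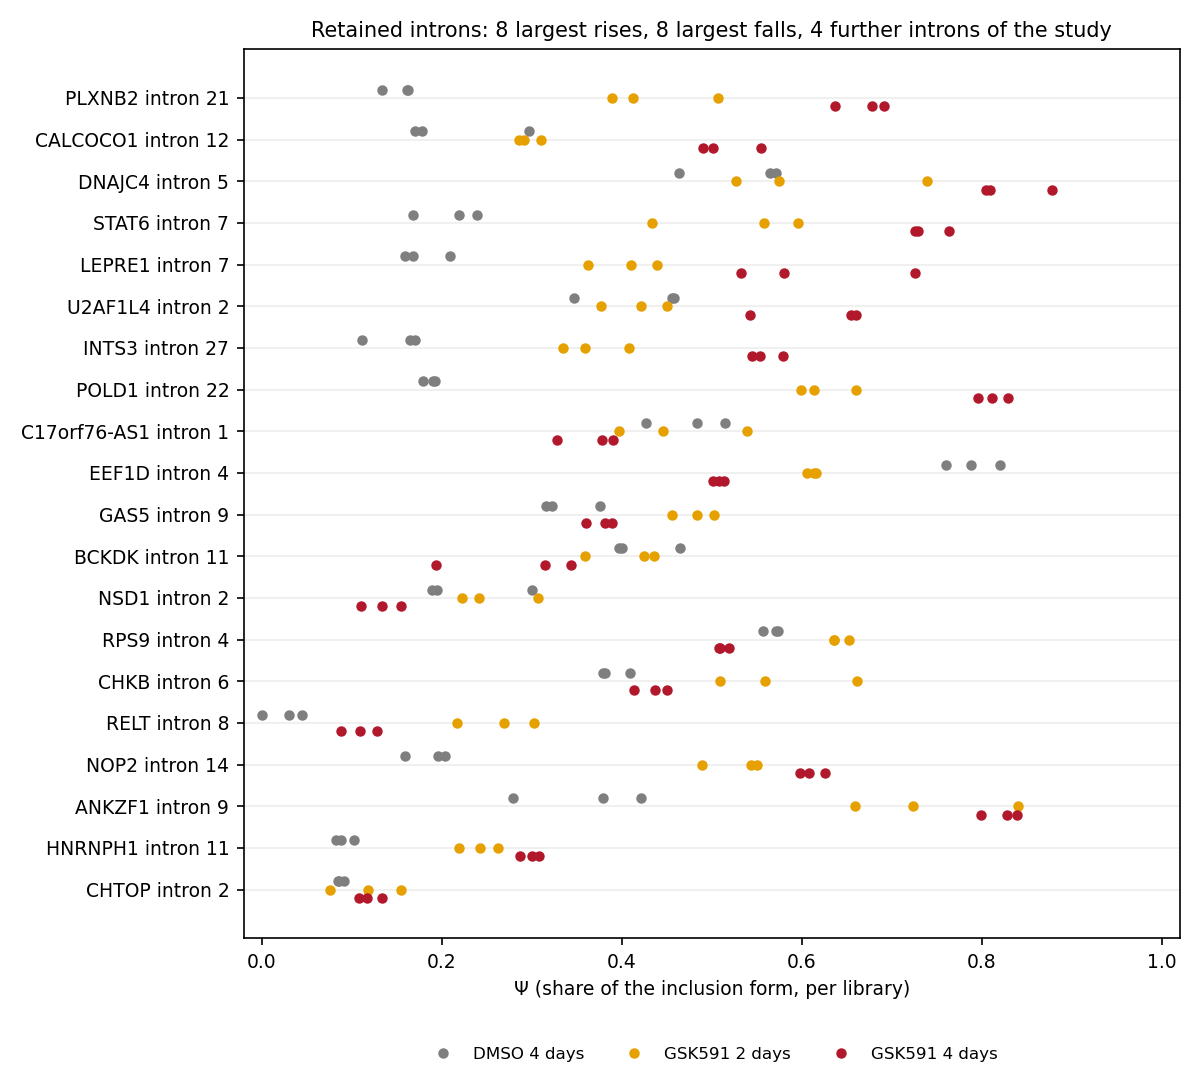
Ψ of each library (points, x axis from 0 to 1) for 20 RI, in 4-day DMSO, 2-day GSK591, and 4-day GSK591. The first 8 rose the most and the next 8 fell the most among the RI eligible to be named. These were called, had at least 50 reads in every library and no overlap between days, and were 1 per gene. The last 4 are further introns of genes the study followed. Of these, NOP2 and HNRNPH1 show no overlap between the days and ANKZF1 and CHTOP do.

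Introns that fell formed a smaller and different set. RPS9, a protein of the small ribosomal subunit, retained intron 4 at 0.652, 0.636, and 0.636 at 2 days and at 0.508, 0.509, and 0.519 at 4 days, with DMSO in between at 0.557 to 0.574 (ΔΨ -0.130 ± 0.00638, adjusted p = 0.000604). No library of one day came near the other day. NSD1, a histone H3 lysine methyltransferase, retained intron 2 of its 5′ UTR at 0.242, 0.307, and 0.223 and then at 0.154, 0.110, and 0.134 (ΔΨ -0.125 ± 0.0287, adjusted p = 0.000452). In EEF1D, a subunit of the translation elongation factor that recharges eEF1A, intron 4 went from 0.615, 0.613, and 0.605 to 0.514, 0.501, and 0.508, while DMSO stood at 0.760 to 0.821 (ΔΨ -0.104 ± 0.00477, adjusted p = 2.79e-07). These 3 introns were called without each library. Another EEF1D intron that ends at the same 3′ splice site rose (ΔΨ 0.0284 ± 0.00424, adjusted p = 0.00618), and the forms of overlapping introns share reads.

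Less stable decreases were those of RELT, CHKB, and BCKDK. RELT, a receptor of the tumor necrosis factor family, fell at intron 8 from 0.263 ± 0.0432 to 0.109 ± 0.0199, with 0.025 ± 0.0229 in DMSO (SD, n = 3 each), on 72 to 91 reads per library. It was called with all libraries (adjusted p = 0.0375) and without the 2-day library a, and was not called without any one of the other 5 (adjusted p up to 0.226). CHKB, choline kinase beta, fell at intron 6 from 0.576 ± 0.078 to 0.434 ± 0.0186 (adjusted p = 0.0136), and without the 2-day library a ΔΨ was -0.100 (adjusted p = 0.164) and without the 4-day library c it was -0.133 (adjusted p = 0.104). BCKDK, the kinase that restrains branched-chain amino acid breakdown, fell at intron 11 from 0.407 ± 0.0411 to 0.284 ± 0.0795 (adjusted p = 0.0281), a call lost without the 2-day library a, the 2-day library c, or the 4-day library a (adjusted p up to 0.328, with ΔΨ -0.0777 without the 4-day library a).

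GAS5 is a long non-coding RNA that hosts small nucleolar RNAs (snoRNAs) in its introns, and the study followed its intron 9. That intron had a Ψ of 0.484, 0.455, and 0.503 at 2 days and of 0.389, 0.361, and 0.382 at 4 days, with 0.316 to 0.375 in DMSO. The 4-day libraries a and c were above the highest DMSO library, and all 3 were below the lowest 2-day library (ΔΨ -0.104 ± 0.0161, adjusted p = 4.61e-06). Of 10 tested RI of GAS5, 6 fell, none rose, and all 10 had a ΔΨ below 0 (median -0.0500). Over all 3839 tested RI 0.99% fell, and 1445 had a ΔΨ below 0. The adjacent intron 8, of 524 nt, went from 0.283, 0.310, and 0.345 to 0.217, 0.219, and 0.213 (adjusted p = 9.61e-08), and intron 7 from 0.162 ± 0.0176 to 0.0987 ± 0.00324 (adjusted p = 1.21e-05). Introns 3 and 5 nearer the 5′ end differed by -0.0170 and -0.0202 and were not called (adjusted p = 0.751 and 0.309). Several of these events overlap and share reads.

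C17orf76-AS1, annotated as SNHG29, is another snoRNA host, which the list of hosts did not hold. It had 7 tested RI, of which 5 fell and none rose, and most of the 7 share a 5′ splice site and so reads. Its intron 1 went from 0.540, 0.446, and 0.396 to 0.328, 0.390, and 0.378 (ΔΨ -0.0955 ± 0.0461, adjusted p = 0.00332), and the call was lost without the 2-day library a (ΔΨ -0.0560, adjusted p = 0.122). Its intron 3, from 0.120, 0.106, and 0.0926 to 0.0747, 0.0667, and 0.0696, did not overlap between days (adjusted p = 8.92e-09). Over the list of snoRNA hosts, which includes GAS5, 27 RI were tested, 8 fell, and 0 rose in the quasi-binomial test (9 had an unadjusted p under 0.05, and 7 with limma), with a median ΔΨ of -0.00968 and 19 below 0. Over all tested RI 0.99% fell and 5.11% rose. The 2 called RI outside GAS5 were small, at -0.00968 ± 0.00194 in SNHG5 (adjusted p = 0.00824, 0.0515 with the dispersion trend, and up to 0.116 without the 2-day library b or the 4-day library b) and -0.00344 ± 0.00117 in GNB2L1 (adjusted p = 0.00308). Among ribosomal protein genes, 67 RI were tested, 7 fell, and 1 rose, with a median ΔΨ of -0.000854. Both tested RI of RPS9 were among the 7, the second going from 0.499 ± 0.0504 to 0.396 ± 0.00873, whereas changes such as that of RPS3 were small (ΔΨ -0.00131, adjusted p = 0.0178, with 11880 reads in the shallowest library).

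Of the other introns the study followed, NOP2 intron 14 rose. NOP2 is a methyltransferase of ribosomal RNA, and this intron of 120 nt had a Ψ of 0.543, 0.551, and 0.489 at 2 days and of 0.608, 0.626, and 0.598 at 4 days, with 0.159 to 0.203 in DMSO. The days did not overlap (ΔΨ 0.083 ± 0.021, adjusted p = 0.00415), but the call was lost without the 2-day library c (ΔΨ 0.0639, adjusted p = 0.0732) or the 4-day library b (ΔΨ 0.0753, adjusted p = 0.0612). ANKZF1, which frees stalled nascent chains in ribosome quality control, retained intron 9 at 0.660, 0.724, and 0.840 at 2 days and at 0.828, 0.839, and 0.799 at 4 days. These overlapped and the change was not called (ΔΨ 0.0808 ± 0.0542, adjusted p = 0.302). CHTOP, an arginine-rich mRNA export factor, and SNRPB were followed by the study as proteins. CHTOP intron 2 was at 0.116 ± 0.0398 and 0.119 ± 0.0128 (ΔΨ 0.00327 ± 0.0241, adjusted p = 0.809). For SNRPB no RI was tested.

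HNRNPH1, a splicing regulator that binds runs of G, had 7 tested RI, all with a ΔΨ above 0, and 4 of them rose. Over all tested RI 59.8% were above 0 and 5.11% rose. Some of the 7 share a splice site and so share reads. Intron 11, the deepest with 4009 to 6315 reads per library, went from 0.219, 0.243, and 0.262 to 0.287, 0.300, and 0.308 (ΔΨ 0.0572 ± 0.0139, adjusted p = 1.53e-06). It was taken for its read depth and not as the HNRNPH1 intron that the study assayed. Intron 3 went from 0.173, 0.229, and 0.193 to 0.279, 0.319, and 0.326 (ΔΨ 0.109 ± 0.0221, adjusted p = 2.21e-10), and the 92-nt intron 10 from 0.269 ± 0.019 to 0.359 ± 0.0121 (adjusted p = 1.4e-08). None of these 3 overlapped between days. In the same gene intron 1, in the 5′ UTR, was at 0.0776 ± 0.013 and 0.0939 ± 0.0167 and was not called (adjusted p = 0.44). Among hnRNP genes as a list, 18 RI were tested, of which 6 rose and none fell (median ΔΨ 0.00685). This stands against 5.11% and 0.99% over all tested RI, and 4 of the 6 were those of HNRNPH1.

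Against 6.1% of all tested RI, the called share was 10.3% in core spliceosome genes and 23.1% in genes used as models of detained introns, on small numbers. Among core spliceosome genes 3 of 29 tested RI rose and none fell, with 24 above 0 and a median ΔΨ of 0.0122 against 0.00424 over all tested RI. Besides U2AF1L4, these were in U2AF1 (0.0443 to 0.0745, adjusted p = 0.00120) and RBM25 (0.107 to 0.160, adjusted p = 0.000775). Among genes used as models of detained introns 3 of 13 rose, in OGT, RBM39, and DDX5. OGT, the enzyme that adds O-linked N-acetylglucosamine, retained intron 4 at 0.475, 0.567, and 0.544 at 2 days and at 0.659, 0.638, and 0.653 at 4 days, with 0.467 to 0.485 in DMSO (ΔΨ 0.121 ± 0.0282, adjusted p = 0.0481). That call did not survive leaving out any 1 library (adjusted p 0.0864 to 0.216) or the dispersion trend (adjusted p = 0.129). Of 9 RI in SR protein genes 1 rose, intron 3 of SRSF7 (0.117, 0.164, and 0.144 to 0.176, 0.202, and 0.199, adjusted p = 3.43e-06), and 6 of 9 were below 0 (median ΔΨ -0.00757). Among 15 RI of mRNA export genes 1 rose, intron 6 of the helicase DDX39B (0.162 ± 0.0414 to 0.216 ± 0.00754, adjusted p = 0.000169, and ΔΨ 0.0308 in place of 0.0538 without the 2-day library a, still called), with 13 above 0. Of the 4 RI of Sm and U1 proteins, 5 of snRNP assembly factors, and 6 of arginine methyltransferases, the quasi-binomial test called 0, with 1, 0, and 0 at an unadjusted p under 0.05 and 0 with limma. Their median ΔΨ were 0.0450, 0.00800, and 0.00528.

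In cell cycle and repair genes the called share was 9.09% for DNA repair and 4.17% for mitosis, against 6.1% of all tested RI. Of 22 RI in DNA repair genes 2 rose, POLD1 intron 22 and an intron of ERCC3, a helicase of transcription factor TFIIH. ERCC3 intron 2 went from 0.694, 0.833, and 0.733 to 0.954, 0.905, and 0.939 (ΔΨ 0.179 ± 0.0438, adjusted p = 0.0148) and lost its call without the 2-day library a or c or the 4-day library a or c (adjusted p up to 0.114). Of 3 RI of p53 pathway genes, 1 rose and 1 fell, both in BAX, which permeabilizes mitochondria in apoptosis. BAX intron 2, of 87 nt, rose from 0.222, 0.233, and 0.283 to 0.304, 0.311, and 0.384 (adjusted p = 6.79e-05), and the other fell from 0.430 ± 0.0192 to 0.348 ± 0.00952 (adjusted p = 5.55e-09). Among mitosis genes 1 of 24 rose, ANAPC5 intron 10, by 0.00784 ± 0.00155 (adjusted p = 0.0289, lost without the 2-day library a or c or the 4-day library b or c, up to 0.203). Among splicing kinase genes 1 of 15 rose, in PRPF4B, by 0.0247 ± 0.00593 (adjusted p = 0.0449, and 0.0687 to 0.296 with any 1 library left out). Of 8 RI in genes with epithelial and mesenchymal isoforms 1 rose, in FGFR1 (0.117 to 0.235, adjusted p = 0.0279), and all 8 had a ΔΨ above 0 (median 0.0464). EWSR1, a FET family RNA-binding protein outside these lists, had 3 of 4 RI that rose. They include a pair with a shared 5′ splice site and nearby 3′ splice sites, which share reads. At the EWSR1 intron of 318 nt the days overlapped (adjusted p = 0.0428). EIF4A1, a translation initiation helicase, had 4 of 10 that rose, by 0.00404 to 0.0109. Both genes were picked after their values were seen, from the genes with the most called RI.

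The RI that rose were longer and less rich in G and C than tested RI. Their median length was 308 nt, against 252 nt over all tested RI and 260 nt for those that fell, and 22.4% were 1000 nt or longer, against 13.3% of all tested. Median GC content was 52.6% and 51.6% in RI that rose and fell, and 57.0% in all tested. Of the RI that rose 94.9% lay between coding exons or within coding sequence, against 77.5% of all tested, while 12 of the 38 that fell (31.6%) lay in non-coding transcripts, against 6.30% of all tested. The first 6 intron bases were GTGAGT in 12.8% of RI that rose, 23.7% of those that fell, and 14.2% of all tested, and GTAAGT in 3.06%, 10.5%, and 6.62%. The third intron base was A in 42.3%, 42.1%, and 43.0%, and the intron was the last of its transcript in 8.21%, 16.2%, and 11.9% of those with an annotated number. These are descriptions with no test, and called RI had more reads than tested RI, as the plot of ΔΨ against reads shows.

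SE changed in both directions in about equal number. Of 65338 tested SE, 398 were called (0.609%), of which 171 rose (0.262%) and 227 fell (0.347%). The days did not overlap in 5363 SE (8.21%), and 5115 had an unadjusted p under 0.05. The median Ψ was between 0.989 and 0.991 in all 6 libraries, with a difference of -0.000471 (p = 0.4, two-sided exact permutation test). SE that rose had a median Ψ of 0.325 in DMSO, 0.335 at 2 days, and 0.467 at 4 days, and those that fell of 0.866, 0.765, and 0.630. Exon length was a multiple of 3 in 49.7% of SE that rose, 45.4% of those that fell, and 41.0% of all tested. limma called none (3986 at an unadjusted p under 0.05), and 305 of the 398 were also called with the dispersion trend. Leaving out the 2-day library a gave 229 and leaving out the 4-day library c gave 214, and 96 of the 398 were called without each library. The shallowest library had a median of 456 reads in SE that rose, 586 in those that fell, and 141 in all tested. In simulated data whose dispersion grew with reads, unchanged events made up most SE calls.

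Under the same limits on reads and overlap as for RI, the largest SE increases included exons in transcripts annotated as targets of nonsense-mediated decay. DTYMK, thymidylate kinase, included a 415-nt exon at 0.337, 0.417, and 0.521 at 2 days and at 0.643, 0.702, and 0.970 at 4 days, with 0.166 to 0.188 in DMSO (ΔΨ 0.347 ± 0.114, adjusted p = 0.000249). Without the 4-day library c, the highest, ΔΨ was 0.247 (adjusted p = 0.12). NABP1, a single-stranded DNA binding protein, included a 104-nt exon at 0.119, 0.0922, and 0.0686 and then at 0.379, 0.273, and 0.435, while DMSO stood at 0.0851 to 0.171. Here the 2-day libraries overlapped DMSO and the 4-day libraries were above both (ΔΨ 0.269 ± 0.0498, adjusted p = 0.000525). BCAT2, the mitochondrial branched-chain aminotransferase, showed the same order in a 481-nt exon of its 5′ UTR, with 0.211, 0.237, and 0.220 at 2 days, 0.413, 0.446, and 0.512 at 4 days, and 0.186 to 0.259 in DMSO (ΔΨ 0.234 ± 0.0301, adjusted p = 7.62e-12). FGFR1, a fibroblast growth factor receptor, rose at a coding exon of 151 nt from 0.149, 0.211, and 0.168 to 0.327, 0.379, and 0.426, with 0.0332 to 0.0538 in DMSO (ΔΨ 0.201 ± 0.034, adjusted p = 2.4e-06). NABP1, BCAT2, and FGFR1 were called without each library. FAM192A (ΔΨ 0.310 ± 0.0936, adjusted p = 0.0108, 51 to 80 reads) and HEATR6 (ΔΨ 0.248 ± 0.055, adjusted p = 0.0183, 53 to 190 reads) were not, at up to 0.137 without the 2-day library a or c or the 4-day library a or b, and up to 0.312 without the 2-day library b or the 4-day library a or c.

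Under these limits, the largest SE decreases were in exons that were mostly included in DMSO, and each lost its call without at least 1 library. DPY19L3, which attaches mannose to tryptophan, went at an 83-nt exon from 0.627, 0.739, and 0.726 to 0.396, 0.427, and 0.481, with 0.848 to 0.969 in DMSO (ΔΨ -0.263 ± 0.0432, adjusted p = 0.00214, and 0.0516 without the 2-day library b). ATE1, arginyltransferase, went at its 129-nt exon 7 from 0.668, 0.567, and 0.619 to 0.451, 0.418, and 0.376 (ΔΨ -0.203 ± 0.0362, adjusted p = 0.0228, and up to 0.218 without the 2-day library a or c or the 4-day library b or c). The same ATE1 exon forms a mutually exclusive pair, in which Ψ of the alternate exon went from 0.220, 0.325, and 0.282 to 0.467, 0.483, and 0.549 (adjusted p = 0.0224, and up to 0.208 without any one 4-day library), so both measures of this pair moved from 1 exon to the other, on partly shared reads. HSPG2, the basement membrane proteoglycan perlecan, fell from 0.800 ± 0.0642 to 0.586 ± 0.0926 (adjusted p = 0.00762, and up to 0.217 without the 2-day library b or the 4-day library a or c). AMDHD2, of amino sugar metabolism, fell from 0.913 ± 0.0340 to 0.669 ± 0.141 (adjusted p = 0.0271) and kept its call only without the 4-day library c (up to 0.524 without one of the others). ARRDC1, an arrestin relative, fell from 0.763 ± 0.0322 to 0.571 ± 0.0913 (adjusted p = 0.0309, and 0.0558 with the dispersion trend) and kept its call only without the 4-day library a (up to 0.276 without one of the others). A WASH3P exon (ΔΨ -0.214, adjusted p = 0.00977, and up to 0.562 without the 2-day library a or b or the 4-day library c, with ΔΨ -0.137 without the last) belongs to a family of near-identical copies, so its reads cannot be assigned with certainty.

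**Figure D4:**
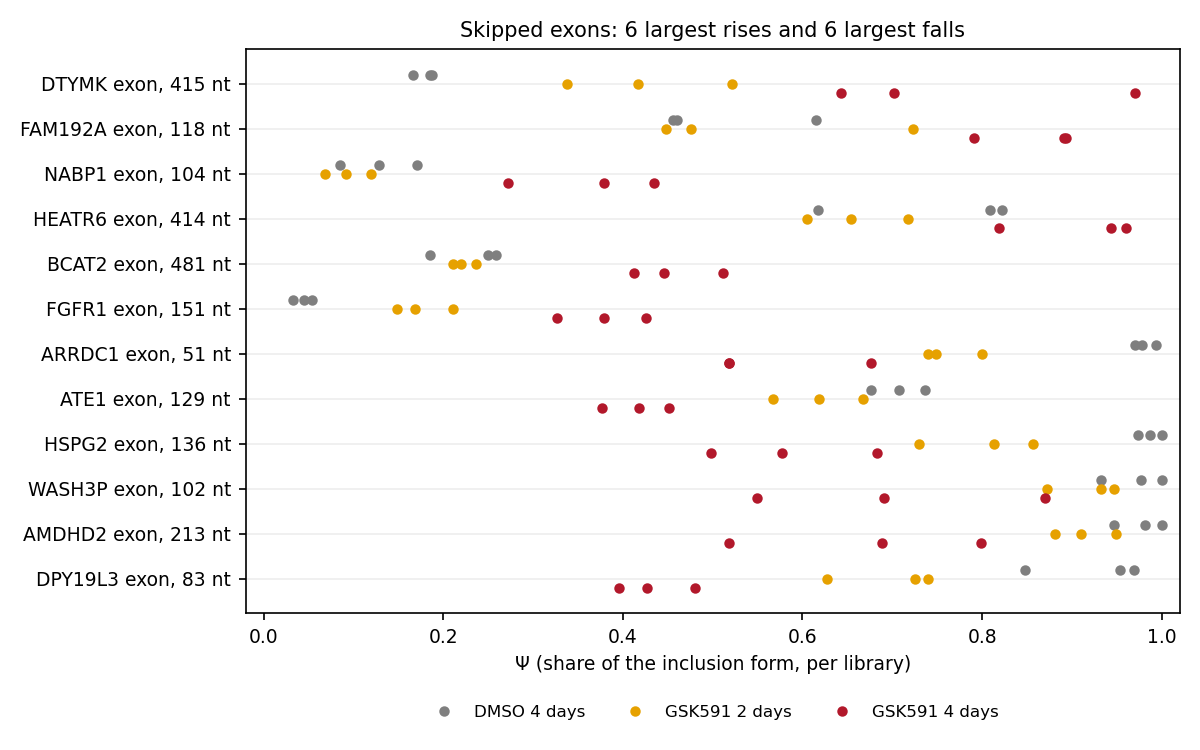
Ψ of each library (points, x axis from 0 to 1) for 12 SE, in 4-day DMSO, 2-day GSK591, and 4-day GSK591. They are the 6 largest rises and the 6 largest falls among called SE with at least 50 reads in every library and no overlap between days, 1 per gene. In all 12 the 4-day points lie to one side of the 2-day points, which was a condition for choosing them. For NABP1 and BCAT2 the 2-day points overlap DMSO (0.0851 to 0.171 and 0.186 to 0.259).

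Splicing factor genes changed at decay-prone and at coding exons. SNRNP70 encodes a protein of the U1 snRNP, and its 1474-nt exon, annotated in a transcript that is a target of nonsense-mediated decay, went from 0.0477, 0.0632, and 0.0491 to 0.131, 0.138, and 0.120, with 0.0419 to 0.0461 in DMSO (ΔΨ 0.0764 ± 0.00738, adjusted p = 1.18e-179, on 4191 to 6508 reads). SRSF6, an SR protein, included a 268-nt exon of the same annotation at 0.0949, 0.121, and 0.129 and then at 0.186, 0.197, and 0.196, where DMSO stood at 0.101 to 0.116 (ΔΨ 0.0782 ± 0.0108, adjusted p = 8.85e-12). PCBP2, a poly(C) binding protein, included a 39-nt coding exon less, at 0.268, 0.270, and 0.279 and then at 0.192, 0.192, and 0.177, with 0.620 to 0.663 in DMSO (ΔΨ -0.0853 ± 0.00615, adjusted p = 3.56e-22). All 3 were called without each library, and none overlapped between days. So small an adjusted p reflects read depth and a spread shared over all SE, and the unadjusted limma p of these 3 were 0.0107, 0.0643, and 0.115.

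Over all tested SE 0.609% were called (0.262% higher and 0.347% lower). Of 52 tested SE of SR proteins 3 rose (5.77%) and none fell, in SRSF3, SRSF6, and SRSF7. Among hnRNP genes 8 rose and 11 fell of 205 (9.27%), with several events per gene. An HNRNPDL exon rose from 0.0610 to 0.132 (adjusted p = 2.28e-15), and an HNRNPC exon fell from 0.815 to 0.760 (adjusted p = 1.44e-10). HNRNPUL1 rose at a 36-nt exon from 0.755, 0.712, and 0.663 to 0.863, 0.877, and 0.848 (ΔΨ 0.153 ± 0.028, adjusted p = 0.000134). Of 117 SE in Sm and U1 genes 4 rose, 3 of them overlapping events of SNRNP70 and 1 in LUC7L, a U1-associated protein (ΔΨ 0.138 ± 0.0667, adjusted p = 0.0286, with overlapping days, 0.0529 with the dispersion trend, and up to 0.491 without the 2-day library a or c or the 4-day library a or c, with ΔΨ 0.0852 without the 4-day library a). U2AF1, the small subunit of U2AF, fell at a 67-nt exon from 0.314, 0.301, and 0.278 to 0.236, 0.230, and 0.239, below the 0.506 to 0.584 of DMSO (ΔΨ -0.0632 ± 0.0107, adjusted p = 0.00264, and 0.11 without the 2-day library a). SF1, the branch point binding protein, rose at a 205-nt exon by 0.0584 ± 0.0221 (adjusted p = 0.0357, 0.0694 with the trend, and up to 0.598 without the 2-day library a, where ΔΨ was 0.0370, or any one 4-day library), and RBM39 rose at a 73-nt exon from 0.144, 0.101, and 0.0955 to 0.155, 0.183, and 0.171 (adjusted p = 1.91e-06).

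Outside RNA processing, NUMA1, which anchors spindle poles, rose at a 42-nt exon from 0.328, 0.334, and 0.335 to 0.482, 0.526, and 0.484, with 0.363 to 0.405 in DMSO (ΔΨ 0.165 ± 0.0143, adjusted p = 2.8e-05). The 2-day libraries were below DMSO and the 4-day libraries above it. XRCC5, the Ku80 subunit of end joining, rose at an 85-nt exon in the 5′ UTR from 0.0501, 0.030, and 0.0444 to 0.0811, 0.0978, and 0.0779 (adjusted p = 1.91e-06), and CD44, an adhesion receptor, at a 204-nt variable exon from 0.068, 0.0665, and 0.0766 to 0.0973, 0.111, and 0.104 (adjusted p = 1.13e-06). RPS25, of the small ribosomal subunit, fell at a 129-nt exon from 0.656, 0.668, and 0.656 to 0.542, 0.550, and 0.493, with 0.843 to 0.896 in DMSO (ΔΨ -0.132 ± 0.0183, adjusted p = 2.97e-05). All 4 were called without each library. By list, 1 of 482 SE in mitosis genes rose (0.207%), 1 rose and 1 fell of 694 in DNA repair genes (0.288%), and 3 rose and 1 fell of 223 in genes with epithelial and mesenchymal isoforms (1.79%), against 0.609% called over all tested SE.

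Alternative splice sites and exclusive exons were called in the following numbers. Of 5726 tested A3SS 32 were called (0.559%), 16 in each direction (0.279%), with no overlap in 595 (10.4%). Of 3799 A5SS 91 were called (2.4%), 56 higher (1.47%) and 35 lower (0.921%), with no overlap in 482 (12.7%). Of 15370 MXE 41 were called (0.267%), 36 higher (0.234%) and 5 lower (0.0325%), with no overlap in 1998 (13%). limma called 0 of each, with 357, 306, and 1085 at an unadjusted p under 0.05. NABP1 had the largest increase among called A3SS, where Ψ of the longer form went from 0.149, 0.194, and 0.255 to 0.516, 0.50, and 0.617, with 0.164 to 0.189 in DMSO (ΔΨ 0.345 ± 0.0479, adjusted p = 4.55e-09). No overlap between the days was a condition for naming this event, and the call held without each library. The MXE count was the least stable, at 114 without the 2-day library a, 135 and 222 without the 2-day libraries b and c, and 6 to 17 without one of the 4-day libraries. Without the 2-day library a the A3SS and A5SS counts were 21 and 56, and without the 4-day library b they were 21 and 60, with 55 A5SS without the 4-day library c.

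Among these types several genes of the lists recurred. In ILKAP, a phosphatase of integrin-linked kinase signaling, an A5SS that adds 23 nt rose from 0.242, 0.213, and 0.236 to 0.492, 0.377, and 0.490 (adjusted p = 6.48e-05). ST3GAL4, a sialyltransferase, fell at an A5SS of 12 nt from 0.671, 0.630, and 0.770 to 0.507, 0.435, and 0.458 (adjusted p = 0.00171). In AURKB, the kinase of the chromosomal passenger complex, an A3SS of 46 nt went from 0.130, 0.135, and 0.120 to 0.315, 0.179, and 0.248 (adjusted p = 0.00173, and 0.197 without the 4-day library a, with ΔΨ 0.085). GAS5 also fell at an A5SS from 0.953 ± 0.0337 to 0.801 ± 0.0507 (adjusted p = 0.00398, and 0.0815 without the 4-day library a), and SNHG1 fell at an A3SS from 0.754, 0.754, and 0.735 to 0.60, 0.701, and 0.582 (adjusted p = 4.94e-05). BCAT2 rose as an MXE and was called without each library, from 0.159, 0.163, and 0.160 to 0.320, 0.360, and 0.336 (adjusted p = 0.000496), and RPL10 of the large ribosomal subunit rose from 0.329, 0.330, and 0.323 to 0.380, 0.385, and 0.386 (adjusted p = 4.31e-07). FKBP10, a collagen chaperone, fell as an MXE from 0.764, 0.772, and 0.754 to 0.617, 0.654, and 0.602 (adjusted p = 0.00702, and 0.0953 without the 4-day library c).

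The change between 2 and 4 days was also measured with MS023 and with both inhibitors, in libraries that GSK591 alone does not share. With MS023, 13 of 3851 RI were called between 2 and 4 days (0.338%), 6 of them higher (0.156%), and with both inhibitors 228 of 3833 (5.95%), 155 of them higher (4.04%). For SE the counts were 69 of 61320 with MS023 (0.113%), 34 of them higher (0.0554%), and 936 of 60792 with both (1.54%), 687 of them higher (1.13%). The 196 RI that rose with GSK591 had a median ΔΨ of 0.000246 with MS023, where 103 were above 0 and 93 below, and 3 were called higher. With both inhibitors their median ΔΨ was 0.0291, 177 were above 0, 75 were called higher, and 1 was called lower, against 53.4% above 0 over all tested RI. The 38 RI that fell had a median ΔΨ of -0.00422 with MS023, where 30 were below 0 and 4 were called lower. With both inhibitors their median ΔΨ was -0.0315, where 33 were below 0 and 22 were called lower. Over all tested RI 2078 of 3805 were below 0 with MS023, and 1671 of 3806 with both inhibitors.

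The difference between treatments was tested by an interaction term. Between GSK591 and MS023, 46 of 3741 RI differed (1.23%), with a more positive change under GSK591 in 41 and a more negative one in 5, and 36 of the 46 were among the RI that rose with GSK591 and 5 among those that fell. Between GSK591 and both inhibitors 10 of 3745 differed (0.267%), with a more positive change under GSK591 in 4. The ΔΨ of POLD1 intron 22 was 0.188 with GSK591 and -0.0103 with MS023 (adjusted p = 0.000423). That of PLXNB2 intron 21 was 0.233 with GSK591 and -0.0258 with MS023 (adjusted p = 0.00166). For SE the counts were 104 of 58313 (0.178%) and 151 of 59004 (0.256%), and in 125 of the 151 the change was more negative under GSK591 than under both inhibitors. limma called 0 for RI or SE in each of these tests. For A3SS, A5SS, and MXE 0.22%, 0.732%, and 0.0314% differed from MS023 and 0.111%, 0.14%, and 0.0833% from both inhibitors. Since the called events were chosen by their change with GSK591, which also enters these tests, the counts over called events are a description. GAS5 intron 9 differed by -0.0388 with MS023 and fell by 0.127 with both inhibitors, and its interactions were not called (adjusted p = 0.43 and 0.194).

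**Figure D5:**
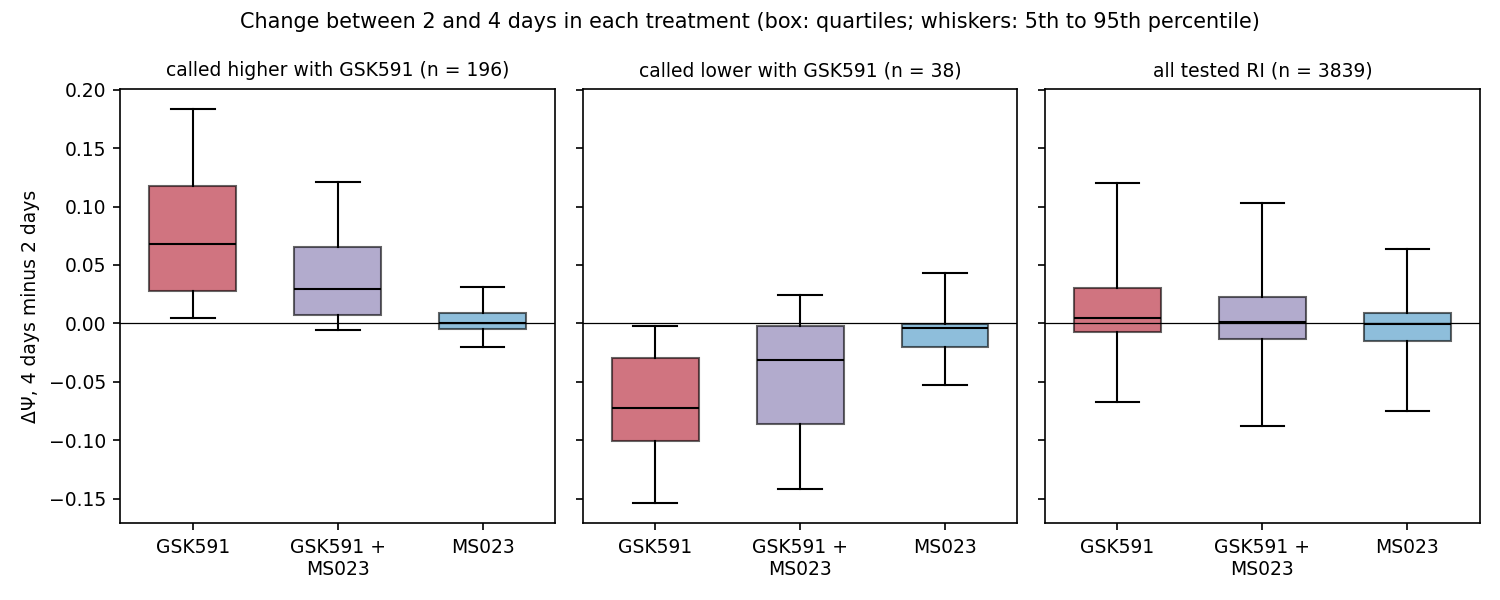
ΔΨ between 2 and 4 days (y axis) with GSK591, with both inhibitors, and with MS023, for RI called higher with GSK591 (n = 196), RI called lower (n = 38), and all tested RI (n = 3839). Boxes show quartiles and whiskers the 5th to 95th percentiles over introns. In the called-higher panel the median was 0.0679 with GSK591, 0.0291 with both, and 0.000246 with MS023.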

How the data were processed

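The authors trimmed reads, aligned them to hg19, and compared every inhibitor group with DMSO in rMATS. The submitters' processing notes name Trim Galore 0.6.5, STAR 2.4.2a, Picard 2.3.0, and deepTools 3.3.1. The authors deposited whole-number counts of inclusion and skipping reads per event, packed as 3 libraries per cell, with effective lengths. The inclusion count of a long segment holds more reads than its junctions alone, which the division by effective length corrects. The tables also hold the authors' p-values, FDR, and Ψ differences against DMSO, which were not used, and 0 columns of per-sample values in the tables used were left out.

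Ψ was computed from counts divided by effective length. Events with at least 10 reads in every library were tested with a quasi-binomial logistic model, whose dispersion was moderated with limma 3.58.1 (R 4.3.3) and never allowed under 1, an F test, and Benjamini-Hochberg adjustment within the event type. A group with 1 form only in all its libraries was given no residual degree of freedom, which was decided once the data had been opened. The same model with an interaction term compared treatments. On simulated data with constant dispersion most calls were true changes, though most changed SE were missed. Where the simulated dispersion grew with reads, unchanged events made up most SE calls (fewer with a trended dispersion) and RI calls missed most changes. limma on log2 inclusion odds called no changed event in either case. The p-values of the quasi-binomial test rest on read counts and on a spread between these libraries that is moderated over the events of a type. They do not measure the spread of a single event alone, and the spread between libraries may be technical. Positions and intron numbers are from GRCh37 and its annotation, in which 93.59% of tested RI were annotated introns.

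Named events were first taken from called events with at least 50 reads in every library and no overlap between days. Per type and direction, those with the largest absolute ΔΨ were kept, 1 per gene (8 RI, 6 SE, and 2 each of A3SS, A5SS, and MXE). Introns of genes the study followed and up to 3 called events per gene list were added. For HNRNPH1 and CHTOP the tested RI with the most reads was taken. Members and lists were chosen with earlier results of these data known. Tables were joined in Python 3.11.15 with pandas 2.3.3 and plotted with matplotlib 3.10.9. SKaTER-seq, actinomycin D, and 7-day samples were not used here, and results on some withheld items are not reported here.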

Additional observations from a re-analysis of the deposited data

Results flagged for a closer look

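The change between 2 and 4 days was more positive or more negative with GSK591 than with another treatment in 46 RI (against MS023), 10 RI (against both inhibitors), 104 SE (against MS023), and 151 SE (against both inhibitors), by the interaction term of the quasi-binomial test. Each named event was selected by its change with GSK591, which also enters this test, and the adjusted p are over all events of the type.

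Among named RI, the change differed from that with MS023 for PLXNB2 (adjusted p = 0.00166), CALCOCO1 (0.0203), STAT6 (0.0193), LEPRE1 (0.0461), INTS3 (0.0473), and POLD1 (0.000423). RPS9 (0.0461) and C17orf76-AS1 (0.0384) differed as introns that fell with GSK591. SRSF7 (0.0203) and ANAPC5 (0.0453) differed as well. In SRSF7 the ΔΨ was 0.0507 with GSK591 and -8.25e-05 with MS023.

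Among named SE, the change differed from that with MS023 for DTYMK (0.0116), BCAT2 (0.00186), SRSF6 (8.74e-13), PCBP2 (4.16e-08), SNRNP70 (4.04e-21), and NUMA1 (0.0022). SRSF6 had a ΔΨ of 0.0782 with GSK591 and of -0.0384 with MS023, and SNRNP70 of 0.0764 and 0.0392. Against both inhibitors, NUMA1 (0.0134) and WASH3P (0.0138) differed, and WASH3P reads may come from near-identical copies. NUMA1 had a ΔΨ of 0.165 with GSK591, -0.0325 with MS023, and -0.00883 with both.

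Among the other types, the change differed from that with MS023 for the A5SS of ILKAP (0.0307) and ST3GAL4 (0.0307), the A3SS of AURKB (0.0187) and SNHG1 (0.0176), and the MXE of RPL10 (7.88e-06). ST3GAL4 also differed from both inhibitors (0.0143), with ΔΨ of -0.223 with GSK591 and 0.114 with both.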

How the results depend on the processing

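No paired analysis was possible because the columns carry no replicate numbers. The count models planned as alternatives were not run. The handling of groups with 1 form only and the dispersion trend were chosen after seeing the data. Counts below are in the order RI, SE, A3SS, A5SS, and MXE, against 234, 398, 32, 91, and 41. limma called 1, 0, 0, 0, and 0. Without moderation 2, 38, 0, 0, and 0 were called, and with groups of 1 form only counted in full 0, 0, 0, 0, and 3. At an adjusted p under 0.01 there were 131, 214, 19, 51, and 12, and with an absolute ΔΨ of at least 0.05, 146, 248, 17, 60, and 22. With adjustment over all types together RI were 135 and MXE 67. The dispersion trend gave 64 MXE, and sharing the dispersion with DMSO 27. Interaction counts were 0 with limma in all 4 tests. Leaving out 1 library gave 148 to 228, 214 to 340, 21 to 39, 55 to 80, and 6 to 222 calls, interactions with MS023 of 35 to 79 RI and 77 to 100 SE, and with both inhibitors of 9 to 23 RI and 95 to 151 SE. The difference in median Ψ ranged over these from 0.0193 to 0.0292 (RI), -0.00102 to -0.000132 (SE), -0.00205 to 0.000425 (A3SS), -0.00522 to 0.00355 (A5SS), and 0.00285 to 0.0169 (MXE). Without division by effective length the A3SS difference was 0.000956. The ΔΨ of CHTOP, not called, ranged from -0.017 to 0.0227 and changed sign without the 2-day library a or the 4-day library c (-0.00364). Of 71 named events called, 31 were called without each library, 65 with the trend, and 0 with limma (51 at an unadjusted p under 0.05). Other planned settings kept the side of the threshold or stayed within 1.5 times the count. The cause of these differences was not tested. Read depth limits small ΔΨ, since called RI had a median of 640.5 or more reads in the shallowest library against 184 of all tested.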

Other observations

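Several called RI outside the lists and the rule for named events were chosen after their values were seen. ITGA3, an integrin subunit of epithelial adhesion, rose from 0.236 ± 0.0326 at 2 days to 0.416 ± 0.00723 at 4 days, with a mean of 0.0401 in DMSO (adjusted p = 6.43e-09 in the quasi-binomial test). ABCC3, an efflux transporter, rose from 0.569 ± 0.0257 to 0.736 ± 0.014 (adjusted p = 2.21e-10), and ACADVL, of fatty acid oxidation, from 0.583 ± 0.0433 to 0.738 ± 0.0136 (adjusted p = 1.4e-08).

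Some introns that fell moved away from DMSO and others toward it. PSMD11, a proteasome subunit, was at a mean of 0.683 in DMSO, 0.162 ± 0.0301 at 2 days, and 0.0827 ± 0.00551 at 4 days (adjusted p = 0.00102). SPATA20 was at 0.0849 in DMSO, 0.259 ± 0.0542 at 2 days, and 0.178 ± 0.012 at 4 days (adjusted p = 0.0397). TERF2, a telomere binding protein, had the largest decrease of any called RI, from 0.909 ± 0.0821 to 0.307 ± 0.0872, on as few as 11 reads in 1 library (adjusted p = 0.0222).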
